A study of Mus musculus with 16 samples.

Results

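The transcripts of 10 genes of the ATF4 amino acid response were followed in cultured mouse peritoneal macrophages: Atf4, Ddit3, Atf3, Asns, Psat1, Shmt2, Mthfd2, Aars, Trib3 and Sesn2. They were chosen by gene symbol from the 15871 entries of the read count table, with earlier results of these data known. Their counts are therefore set beside the shares of all entries as description only. Each member has 1 entry, and all 10 passed the filter on low counts that left 13527 entries for testing. The macrophages came from the peritoneal cavity of wild-type C57BL/6 mice aged 8 weeks, where an injection of 6% starch had drawn them, and were cultured in DMEM with serum. The 16 RNA sequencing libraries fell into 4 groups of 4, each treated for 48 h. H_O cells received 33 mmol/L glucose together with oxidised low-density lipoprotein (ox-LDL), which macrophages take up through scavenger receptors as they turn into foam cells. H_C cells received 33 mmol/L glucose, L_O cells were kept in low glucose with ox-LDL, and L_C cells were kept in low glucose. The labels state 50 mg/ml of ox-LDL, and that unit may be a slip. The L_C label also names 27.5 mM mannitol as an osmotic control and the labels of the other groups do not. In the comparisons against L_C the added agent therefore cannot be told apart from any absence of mannitol. In H_O relative to L_O, where no osmotic control is labelled, high glucose cannot be told apart from any difference in osmolarity. Nothing in the labels ties replicates to different animals or dishes, so a p-value here reflects only library-to-library spread, which may be technical.

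ATF4 is a transcription factor whose protein is made mainly when the initiation factor eIF2 is phosphorylated, for example by the kinase GCN2 when uncharged tRNAs accumulate, or by PERK when the endoplasmic reticulum is stressed. Its protein can therefore change without a change in its mRNA. Its target genes encode enzymes that make asparagine, serine and glycine, tRNA synthetases and amino acid transporters, as well as the stress factors CHOP (the product of Ddit3) and TRIB3. The mitochondrial branch of folate metabolism takes serine apart into glycine and a folate-bound carbon unit for purine synthesis, and glycine is also a part of glutathione.

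Library totals lay between 32596640 and 41712885 counts, and L_C replicate 4 stood apart from the other L_C libraries with 3.71% of its counts on mitochondrial genes. The 10 macrophage markers were present in every library and summed to 19600 to 21200 CPM (counts per 1e6 counts of the library) in H_O, 18800 to 19200 CPM in H_C, 18400 to 19200 CPM in L_O and 17700 to 20600 CPM in L_C. Most of that sum was Lyz2 (13300 to 16800 CPM), and single markers moved. In H_O relative to H_C 4 of the 10 rose and 2 fell, in L_O relative to L_C 1 rose and 5 fell (Csf1r by 0.49, Cd14 by 0.75 and Fcgr1 by 0.43 on the log2 scale among them), in H_C relative to L_C 2 rose and 4 fell, and in H_O relative to L_O 3 rose and none fell. Without L_C replicate 4, 4 rose and 5 fell in H_O relative to H_C. In that fit the ox-LDL change of 3 markers was higher in high than in low glucose, against 0 with all libraries. Of 29 markers of other cell types, 21 had an entry and summed to 35.8 to 88.9 CPM in H_O, 39.4 to 141 CPM in H_C, 31.5 to 41.1 CPM in L_O and 46.8 to 69.7 CPM in L_C. The B cell marker Cd79a and the neutrophil marker S100a9 were at 0 in at least 1 library, while the neutrophil marker S100a8 (2.47 to 5.12 CPM) and the fibroblast markers Col1a1 (3.93 to 58.2 CPM) and Col3a1 (2.1 to 37 CPM) were present in all. Of the 17 tested, Cd3e (-1.19), Nkg7 (-2.12) and Dcn (-1.02) fell in L_O relative to L_C, Cd3e (-1.24) fell in H_C relative to L_C, and none passed in H_O relative to H_C or to L_O. The call of Dcn was lost with DESeq2 (adjusted p = 0.0511) and limma-voom (0.0745), among others. Cd3e had 11 to 58 counts per library. Its calls in L_O and in H_C relative to L_C were lost in edgeR with a replicate block (0.0552 and 0.0788), among others. The part of these marker differences in the results below was not tested. In such bulk RNA, fewer cells of a type and less RNA per cell cannot be told apart.

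Among the promoters described here, those of Asns and Atf3 carried, in the stretch before the annotated start, a match to the letters TGATGNAA on either strand, which are shared by many CCAAT-enhancer-binding protein and ATF response elements through which ATF4 is known to bind. The 30 bases around each are shown because these members moved with ox-LDL in both directions (Asns up, Atf3 down), with matches in capitals and each sequence given in the direction of its gene.
Asns: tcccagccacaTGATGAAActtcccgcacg
Atf3: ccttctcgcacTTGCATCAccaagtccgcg
The windows are chr6:7693214-7693243 on the minus strand for Asns and chr1:191183425-191183454 on the minus strand for Atf3, in the RefSeq sequences of GRCm38.p6. The matches begin 23 bases before the start of Asns and 110 bases before that of Atf3. In the Asns window the motif reads in the direction of the gene, and in the Atf3 window its reverse complement does. Trib3 had 1 match, 14 bases after its start. The windows searched ran from 250 bases before to 50 bases after the start. Over all 32851 such windows, 1304 held a match (3.97%). No match to these letters lay in the windows of Atf4, Ddit3, Psat1, Shmt2, Mthfd2 and Sesn2.

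Per kilobase of exon, averaged over the 16 libraries, Atf3 (128 CPM per kb) and Atf4 (102 CPM per kb) were the most abundant members. Aars (31.2 CPM per kb) and Ddit3 (30.2 CPM per kb) lay at neighbouring levels. Mthfd2 followed with 23.9 CPM per kb, then Shmt2 with 11.5, Psat1 with 10.8, Asns with 9.06, Sesn2 with 7.44 and Trib3 with 5.19 CPM per kb. Atf3 stood at percentile 96.9 and Trib3 at percentile 43.6 of the 12489 tested genes with a known length.

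In low glucose, transcripts of the amino acid enzymes rose with ox-LDL while the stress factors Ddit3 and Atf3 fell. Asns, Psat1, Shmt2, Mthfd2, Aars and Sesn2 rose in L_O relative to L_C, Ddit3 and Atf3 fell, and Atf4 and Trib3 did not pass the test (edgeR quasi-likelihood F test, adjusted p of 0.05 after Benjamini-Hochberg adjustment over all tested entries). Thus 6 of 10 members rose, beside 12% of all tested entries, and 2 fell, beside 13.8%. The members' median log2 fold change was 0.287, beside 0.000925 for all entries. In 5 members every L_O library lay above every L_C library and in 2 every one lay below, separations found upward in 12.2% and downward in 13.9% of all entries (26.1% in either direction). With no scaling beyond library totals, 2857 entries rose and 1392 fell, against 1623 and 1867 with TMM scaling, and the members' counts were again 6 and 2. Without L_C replicate 4 they were 5 and 2, since Psat1 no longer passed.

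In high glucose Asns, Psat1, Shmt2, Mthfd2 and Aars rose in H_O relative to H_C, and Ddit3 and Atf3 fell. Of the 10 members 5 rose, beside 10.4% of all entries, and 2 fell, beside 11.5%, while Atf4, Trib3 and Sesn2 did not pass. The members' median log2 fold change was 0.222, beside 0.00894 for all entries. Upward separation of all libraries was seen in 6 members, beside 14.8% of entries, and downward separation in 2, also beside 14.8%. With no scaling beyond library totals 2176 entries rose and 1166 fell, against 1406 and 1556 with TMM scaling, and Sesn2 joined the members that rose.

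**Figure D1:**
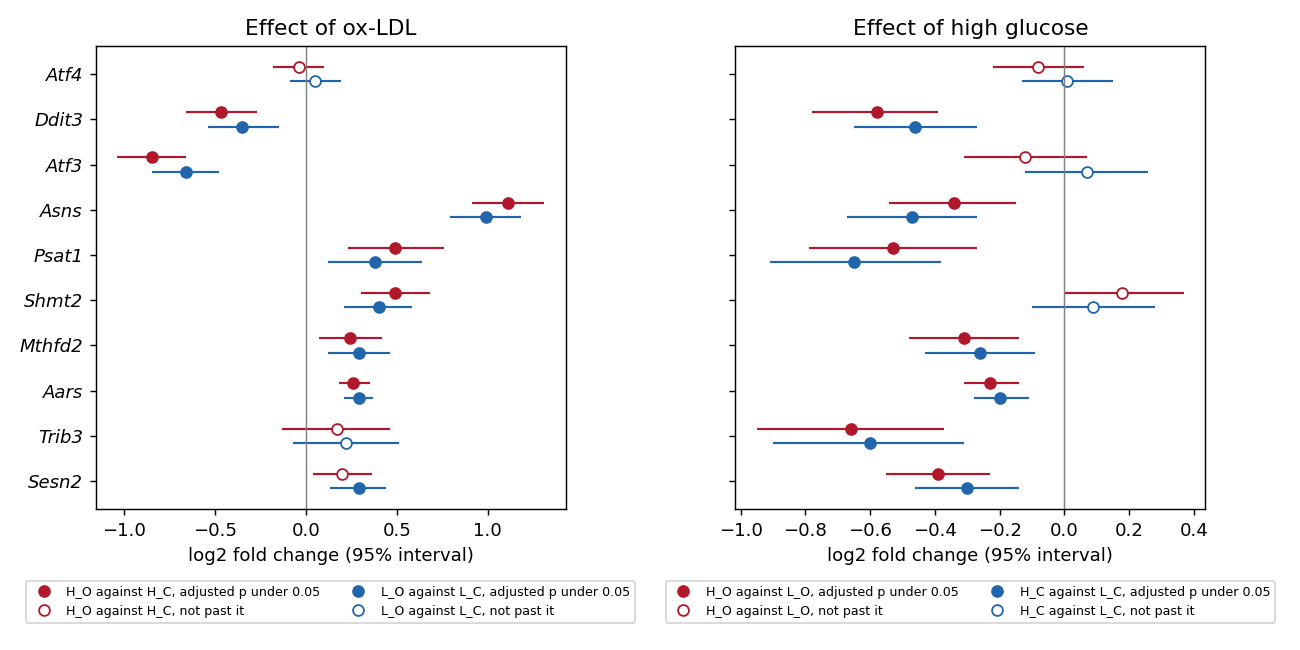
Log2 fold changes of the 10 members with 95% intervals, for the ox-LDL comparisons in the left panel and the glucose comparisons in the right panel. Filled points passed an adjusted p of 0.05. Asns shows the largest rise with ox-LDL among the members, 1.11 in high and 0.99 in low glucose, and no filled point lies above 0 in the glucose panel.

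Most members were lower in high glucose, with ox-LDL and without it. In H_C relative to L_C, Ddit3, Asns, Psat1, Mthfd2, Aars, Trib3 and Sesn2 fell, none rose, and Atf4, Atf3 and Shmt2 did not pass. These 7 of 10 compare with 7.75% of all entries that fell and 5.02% that rose, and the members' median log2 fold change was -0.28, beside -0.00454 for all entries. In 6 members every H_C library lay below every L_C library, beside 9.82% of entries, and in none did every one lie above, beside 7.58%. Without scaling beyond library totals 927 entries rose and 841 fell, against 679 and 1049 with TMM scaling, and 6 members fell. Without L_C replicate 4, 7 members fell.

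In H_O relative to L_O, Ddit3, Asns, Psat1, Mthfd2, Aars, Trib3 and Sesn2 fell as well. These 7 of 10 members stood beside 3.39% of all entries that fell (6.11% were called in either direction), and no member rose, beside 2.71%. The members' median log2 fold change was -0.326, beside 0.00304 for all entries, and in all 7 every H_O library lay below every L_O library, beside 9.52% of entries, while 8.18% of entries were separated upward. With no scaling beyond library totals 419 entries rose and 389 fell, against 367 and 459 with TMM scaling, and 5 members fell. Without L_C replicate 4, 749 entries rose and 1014 fell, and 7 members fell. The comparison against L_C and the ox-LDL comparison in low glucose share the L_C libraries, and the comparison of H_O with L_O shares libraries with both ox-LDL comparisons.

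The change with ox-LDL in high glucose was also set against that in low glucose, as an interaction in the same fit. No member passed, beside 0.0148% of all entries, which is 2 entries, 1 in each direction (0.00739% each). At an unadjusted p of 0.05, 0 members and 1161 of all entries were below the threshold, and DESeq2 and limma-voom gave 0 members as well. The differences between the log2 fold changes ran from -0.19 for Atf3 (95% interval -0.46 to 0.08) to 0.13 for Asns (95% interval -0.15 to 0.41), so differences of that size are not excluded.

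**Figure D2:**
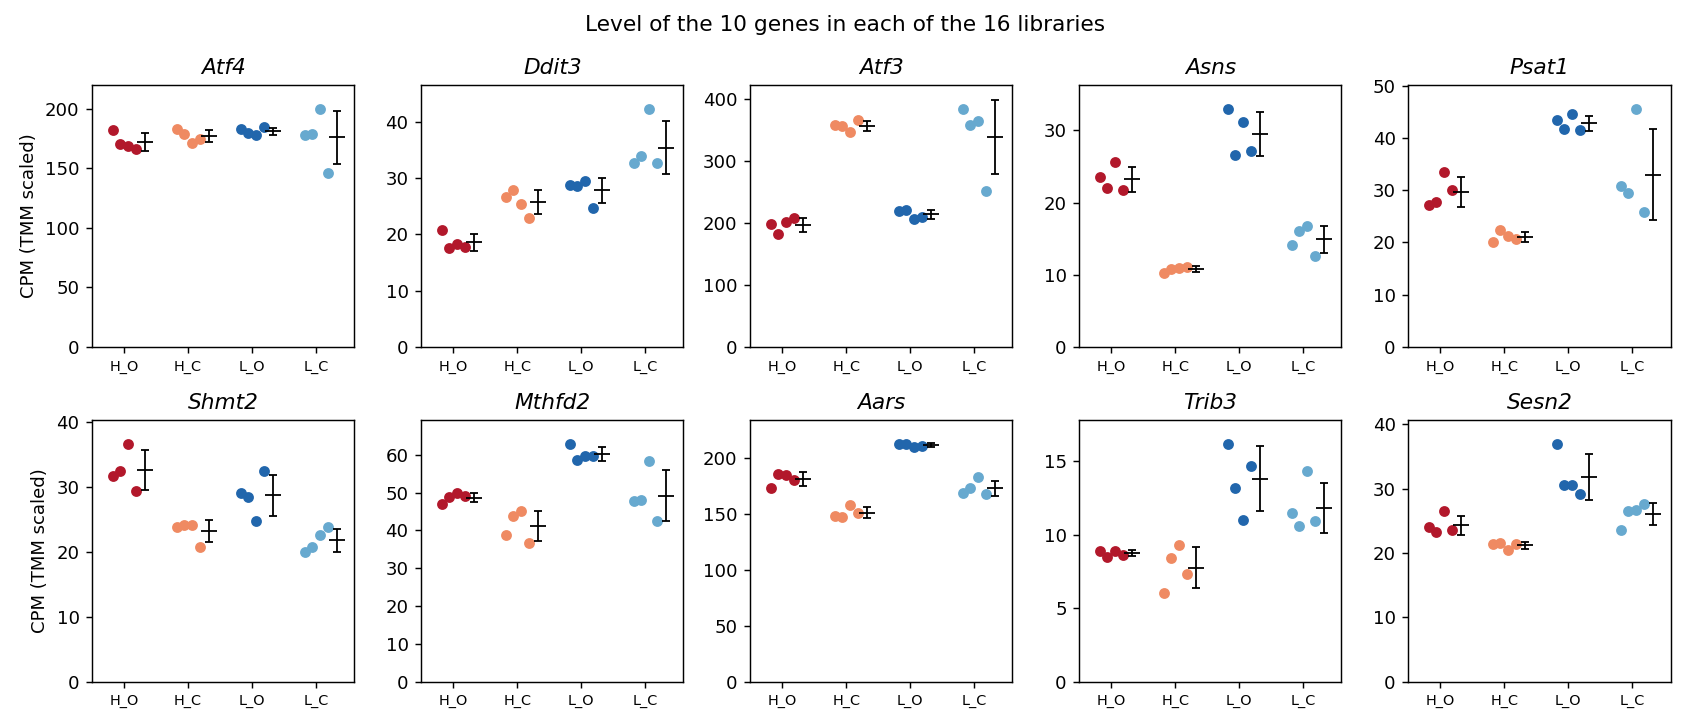
CPM of each member in every library, with groups H_O, H_C, L_O and L_C from left to right, and the mean with its SD as a bar. Asns forms 4 separate clusters of points, with L_O the highest and H_C the lowest, and Atf3 is high in H_C and L_C.

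Among the transcription factors, Atf4 itself (chr15:80255184-80257541, plus strand) was nearly level. It had 182, 170, 169 and 166 CPM in H_O libraries, against 183, 179, 171 and 175 CPM in H_C libraries. It had 183, 180, 178 and 185 CPM in L_O libraries, against 178, 179, 200 and 146 CPM in L_C libraries. The groups overlapped in each glucose setting, and both the highest and the lowest value belonged to L_C. The log2 fold change was 0.05 for L_O against L_C (95% interval -0.09 to 0.19) and -0.04 for H_O against H_C (-0.18 to 0.10). For H_C against L_C it was 0.01 (-0.13 to 0.15) and for H_O against L_O it was -0.08 (-0.22 to 0.06), and the adjusted p lay between 0.595 and 0.948 in the 4 comparisons.

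Ddit3 (chr10:127290774-127296288, plus strand) encodes CHOP, a partner of ATF4 that promotes cell death under prolonged stress of the endoplasmic reticulum. It had 20.8, 17.6, 18.2 and 17.7 CPM in H_O libraries, against 26.6, 27.9, 25.4 and 22.9 CPM in H_C libraries. It had 28.7, 28.6, 29.4 and 24.7 CPM in L_O libraries, against 32.7, 33.9, 42.3 and 32.6 CPM in L_C libraries. The H_O libraries were the lowest and the L_C libraries the highest, and no pair of groups in the 4 comparisons overlapped. Ddit3 fell in each of them, by 0.47 ± 0.093 (SE) on the log2 scale for H_O against H_C (adjusted p = 0.00108) and by 0.35 ± 0.091 for L_O against L_C (adjusted p = 0.00871). It fell by 0.46 ± 0.092 for H_C against L_C (adjusted p = 0.0026) and by 0.58 ± 0.093 for H_O against L_O (adjusted p = 0.000831). Of the 50-base words in its exons 2.14% also occur in Mars, which it overlaps on the other strand, and the strand setting of the counts is not given in the sources used here.

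Atf3 (chr1:191170296-191218039, minus strand) encodes a stress-induced repressor that restrains inflammatory genes in macrophages. It had 198, 182, 201 and 208 CPM in H_O libraries, against 358, 356, 346 and 366 CPM in H_C libraries. It had 219, 221, 207 and 209 CPM in L_O libraries, against 384, 357, 365 and 251 CPM in L_C libraries. All 8 ox-LDL libraries lay below all 8 libraries without it, and L_C replicate 4 was the lowest without it. Atf3 fell by 0.85 ± 0.09 on the log2 scale for H_O against H_C (adjusted p = 1.09e-06) and by 0.66 ± 0.09 for L_O against L_C (adjusted p = 1.91e-05), or by 0.78 without L_C replicate 4. Between glucose settings its change did not pass, with 0.07 for H_C against L_C (95% interval -0.12 to 0.26) and -0.12 for H_O against L_O (-0.31 to 0.07).

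Among the enzymes, Asns (chr6:7675169-7693254, minus strand), which makes asparagine from aspartate and glutamine, had the largest ox-LDL change of the members. It had 23.6, 22, 25.6 and 21.8 CPM in H_O libraries, against 10.2, 10.8, 10.9 and 11.1 CPM in H_C libraries. It had 33, 26.6, 31.2 and 27.2 CPM in L_O libraries, against 14.1, 16, 16.8 and 12.6 CPM in L_C libraries. The groups stood in the order L_O, H_O, L_C and H_C with no overlap between neighbours. Asns averaged 23.2 ± 1.78 CPM in H_O and 10.8 ± 0.352 CPM in H_C (SD, n = 4 each), and 29.5 ± 3.08 CPM in L_O and 14.9 ± 1.89 CPM in L_C.

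These levels are 2.16-fold higher in H_O than in H_C and 1.98-fold higher in L_O than in L_C. The log2 fold change of Asns was 1.11 ± 0.096 for H_O against H_C (edgeR, adjusted p = 7.93e-08) and 0.99 ± 0.094 for L_O against L_C (adjusted p = 2.87e-07). It was -0.47 ± 0.096 for H_C against L_C (adjusted p = 0.00327) and -0.34 ± 0.092 for H_O against L_O (adjusted p = 0.0326). The call for H_O against L_O was lost without H_O replicate 1, 2 or 4 or L_O replicate 1 or 3, with an adjusted p between 0.0678 and 0.124, and with no scaling beyond library totals (0.0521).

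Psat1 (chr19:15904678-15947337, minus strand) encodes the aminotransferase of the middle step of serine synthesis. It had 27.2, 27.7, 33.5 and 30 CPM in H_O libraries, against 20.1, 22.3, 21.2 and 20.6 CPM in H_C libraries. It had 43.5, 41.8, 44.5 and 41.5 CPM in L_O libraries, against 30.9, 29.5, 45.6 and 25.8 CPM in L_C libraries. The H_O and H_C libraries did not overlap, whereas L_C replicate 3 was the highest library of the low glucose groups. Psat1 rose by 0.49 ± 0.13 on the log2 scale for H_O against H_C (adjusted p = 0.00759) and by 0.38 ± 0.12 for L_O against L_C (adjusted p = 0.0302). It fell by 0.65 ± 0.13 for H_C against L_C (adjusted p = 0.00217) and by 0.53 ± 0.12 for H_O against L_O (adjusted p = 0.0141). The rise in L_O was 0.58 without L_C replicate 3. Its call was lost without L_O replicate 1, 2 or 3 or L_C replicate 1, 2 or 4, with an adjusted p between 0.051 and 0.0855, and in a fit of the 8 libraries compared (0.106).

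Shmt2 (chr10:127517123-127522444, minus strand) encodes the mitochondrial enzyme that splits serine into glycine and a folate-bound carbon unit. It had 31.7, 32.5, 36.7 and 29.4 CPM in H_O libraries, against 23.9, 24.1, 24.1 and 20.7 CPM in H_C libraries. It had 29.1, 28.5, 24.8 and 32.4 CPM in L_O libraries, against 20, 20.8, 22.6 and 23.9 CPM in L_C libraries. The ox-LDL libraries lay above their controls without overlap in both glucose settings, and the H_C and L_C libraries were mixed. Shmt2 rose by 0.49 ± 0.089 on the log2 scale for H_O against H_C (adjusted p = 0.000474) and by 0.40 ± 0.089 for L_O against L_C (adjusted p = 0.00261). Its log2 fold change was 0.09 (95% interval -0.10 to 0.28) for H_C against L_C and 0.18 (adjusted p = 0.266) for H_O against L_O, neither of which passed. It overlaps Ndufa4l2 on the opposite strand.

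Mthfd2 (chr6:83305691-83325908, minus strand) encodes the enzyme of the next step in mitochondrial folate metabolism. It had 46.9, 48.8, 49.9 and 49 CPM in H_O libraries, against 38.8, 43.7, 45.1 and 36.7 CPM in H_C libraries. It had 63, 58.6, 59.7 and 59.7 CPM in L_O libraries, against 47.8, 48, 58.5 and 42.5 CPM in L_C libraries. The ox-LDL libraries lay above their controls in both settings, by a narrow margin over L_C replicate 3. Mthfd2 rose by 0.29 ± 0.081 on the log2 scale for L_O against L_C (adjusted p = 0.0119) and by 0.24 ± 0.081 for H_O against H_C (adjusted p = 0.0389). It fell by 0.26 ± 0.082 for H_C against L_C (adjusted p = 0.0431) and by 0.31 ± 0.081 for H_O against L_O (adjusted p = 0.0294).

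The last 3 of these calls for Mthfd2 were close to the threshold. That for H_O against H_C was lost without any single H_O library or without H_C replicate 1 or 4 (adjusted p 0.0522 to 0.135). That for H_O against L_O was lost without any single H_O or L_O library (0.051 to 0.0915). That for H_C against L_C was lost in 13 of 16 fits that left out a library (0.0524 to 0.144), all but those without H_C replicate 2, H_C replicate 3 or L_C replicate 4.

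Aars (chr8:111033144-111057664, plus strand) encodes the cytosolic synthetase that charges tRNA with alanine. It had 173, 186, 185 and 180 CPM in H_O libraries, against 148, 147, 158 and 151 CPM in H_C libraries. It had 213, 213, 210 and 211 CPM in L_O libraries, against 169, 173, 183 and 168 CPM in L_C libraries. L_O was the highest group and H_C the lowest. No pair of groups in the 4 comparisons overlapped, while the H_O and L_C libraries did. Aars rose by 0.26 ± 0.04 on the log2 scale for H_O against H_C (adjusted p = 8.08e-05) and by 0.29 ± 0.04 for L_O against L_C (adjusted p = 2.31e-05). It fell by 0.20 ± 0.04 for H_C against L_C (adjusted p = 0.00286) and by 0.23 ± 0.04 for H_O against L_O (adjusted p = 0.00174). Of the 50-base words in its exons 20.1% also occur in Exosc6, a gene that it overlaps on the same strand, so its level is uncertain to that extent.

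Of the regulators that ATF4 induces, Trib3 (chr2:152337422-152344032, minus strand) encodes a pseudokinase that dampens ATF4 and CHOP activity. It had 8.88, 8.49, 8.91 and 8.64 CPM in H_O libraries, against 6.04, 8.44, 9.27 and 7.31 CPM in H_C libraries. It had 16.2, 13.2, 11 and 14.7 CPM in L_O libraries, against 11.5, 10.6, 14.3 and 10.9 CPM in L_C libraries. The groups with and without ox-LDL overlapped in both settings, while every high glucose library lay below every low glucose library. Its log2 fold change was 0.17 (95% interval -0.13 to 0.46) for H_O against H_C and 0.22 (-0.07 to 0.51) for L_O against L_C, and neither passed. Trib3 fell by 0.60 ± 0.14 for H_C against L_C (adjusted p = 0.00716) and by 0.66 ± 0.14 for H_O against L_O (adjusted p = 0.00682).

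Sesn2 (chr4:132492032-132510501, minus strand) encodes a leucine sensor that restrains the growth kinase complex mTORC1. It had 24, 23.3, 26.5 and 23.6 CPM in H_O libraries, against 21.4, 21.6, 20.4 and 21.4 CPM in H_C libraries. It had 37, 30.6, 30.5 and 29.1 CPM in L_O libraries, against 23.6, 26.5, 26.6 and 27.6 CPM in L_C libraries. The L_O libraries were the highest and the H_C libraries the lowest, with no overlap within either ox-LDL comparison. Sesn2 rose by 0.29 ± 0.076 on the log2 scale for L_O against L_C (adjusted p = 0.00895). For H_O against H_C the log2 fold change was 0.20 (95% interval 0.04 to 0.36, adjusted p = 0.0719). That change passed without L_O replicate 1 or L_C replicate 4 (adjusted p 0.0352 to 0.0467), and in a fit of only the libraries compared or with no scaling beyond library totals (0.0123 to 0.0291). Sesn2 fell by 0.30 ± 0.076 for H_C against L_C (adjusted p = 0.0139), a call lost without H_C replicate 3 (0.052), and by 0.39 ± 0.076 for H_O against L_O (adjusted p = 0.00423).

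The other genes of the pathway were counted from lists. Of all tested entries, 10.4% rose and 11.5% fell in H_O relative to H_C, and 12% rose and 13.8% fell in L_O relative to L_C. In H_C relative to L_C 5.02% rose and 7.75% fell, and in H_O relative to L_O 2.71% rose and 3.39% fell. The counts of the lists below, and of the cell markers above, are to be read beside those shares. Of 18 tested genes of serine and one-carbon metabolism outside the members, 7 rose and 3 fell in H_O relative to H_C, and their median log2 fold change was 0.26. In L_O relative to L_C 7 rose and 1 fell, and the median was 0.21. Phgdh, which commits glucose carbon to serine synthesis, averaged 22.7 ± 1.5 CPM in H_O and 11.7 ± 1.38 CPM in H_C, and 19 ± 1.47 CPM in L_O and 8.99 ± 2.59 CPM in L_C (SD, n = 4 each). It rose by 0.96 ± 0.15 on the log2 scale for H_O against H_C (adjusted p = 0.000113) and by 1.08 ± 0.15 for L_O against L_C (adjusted p = 3.18e-05). Its log2 fold change was 0.38 for H_C against L_C (adjusted p = 0.12) and 0.26 for H_O against L_O (adjusted p = 0.368), so Phgdh did not pass there, while Psat1 fell. Phgdh passed upward for H_C against L_C without L_C replicate 3 (0.54, adjusted p = 0.026). For H_O against L_O it passed upward in a fit of only the libraries compared (adjusted p = 0.0435) and in limma-voom with quality weights (0.0399).

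Mthfd1, the cytosolic folate enzyme, rose by 0.32 and 0.39 in H_O and L_O relative to their controls, and Sfxn1, which carries serine into mitochondria, by 0.43 and 0.28. In H_C relative to L_C, 0 of the 18 genes rose and 2 fell, among them Sfxn1 (-0.29 ± 0.057, adjusted p = 0.00269). There 3 rose and 2 fell with no scaling beyond library totals, and without L_C replicate 4, 1 rose and 1 fell. In H_O relative to L_O 1 rose and 1 fell. Psph and Shmt1 were picked after their values were seen. Psph, which completes serine synthesis, rose for H_O against H_C (0.70 ± 0.12, adjusted p = 0.00021) and did not pass for L_O against L_C (0.31, adjusted p = 0.0613). For L_O against L_C Psph did pass upward with upper-quartile factors (adjusted p = 0.0479), without L_C replicate 2 (0.0432) and with no scaling beyond library totals (0.0148). Shmt1, the cytosolic counterpart of Shmt2, fell for H_O against H_C (-0.71 ± 0.19, adjusted p = 0.0122), a call lost without H_C replicate 4 (0.0602).

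Of 19 cytosolic tRNA synthetases other than Aars, 12 rose and 1 fell in each ox-LDL comparison, with a median log2 fold change of 0.19 in both. Without H_O replicate 1, H_O replicate 3, H_C replicate 2 or H_C replicate 3, 7 rose in H_O relative to H_C. Tars rose by 0.30 ± 0.059 for H_O against H_C and by 0.33 ± 0.059 for L_O against L_C (adjusted p = 0.000945 and 0.000412). The exception was Wars, the tryptophan enzyme that interferon also induces, which fell by 0.34 ± 0.058 and by 0.52 ± 0.058 in these comparisons (adjusted p = 0.000285 and 1.95e-06). Wars also fell by 0.51 for H_C against L_C and by 0.33 for H_O against L_O. With high glucose 5 of the 19 fell in H_C relative to L_C (2 without H_C replicate 2), 2 fell in H_O relative to L_O, and none rose in either. With no scaling beyond library totals 2 rose and 3 fell in H_C relative to L_C, and without L_C replicate 4, 1 rose and 4 fell in H_O relative to L_O.

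Of 17 mitochondrial synthetases, 5 rose in H_O relative to H_C and 4 rose in L_O relative to L_C, and none fell in either. Beside these stand 10.4% and 12% of all entries that rose, and 21.9% and 25.8% called in either direction. Without H_O replicate 2 or 4, 2 rose in H_O, without L_C replicate 4, 9 did, and without L_O replicate 3, 2 rose in L_O. The counts were 9 in H_O and 7 in L_O with no scaling beyond library totals. Among 5 proline enzymes, 2 rose in each ox-LDL comparison. Aldh18a1, which makes the proline precursor, rose by 0.63 ± 0.084 for H_O against H_C (adjusted p = 1.9e-05) and by 0.47 ± 0.083 for L_O against L_C (adjusted p = 0.000324). None of the 5 passed in either glucose comparison. Aldh18a1 lay close to the threshold for H_C against L_C (-0.26, adjusted p = 0.0504), and 1 of the 5 fell there without L_C replicate 4.

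**Figure D3:**
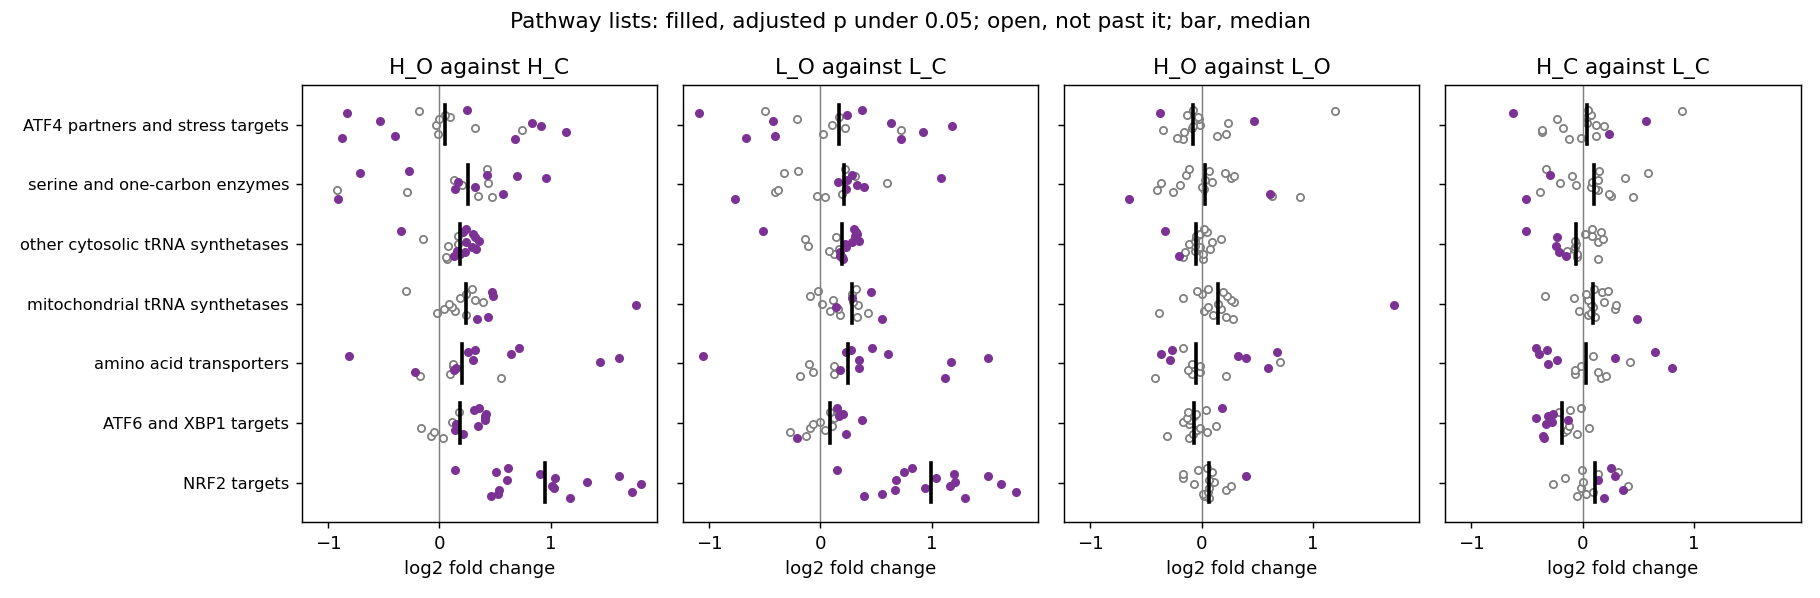
Log2 fold changes of the genes of 7 pathway lists in 4 comparisons, 1 point per gene, filled where the adjusted p was under 0.05, with the median of each list as a bar. Among the cytosolic tRNA synthetases 12 of 19 points are filled above 0 in each ox-LDL comparison, and none is filled above 0 in the glucose comparisons with TMM scaling (with no scaling beyond library totals, 2 rose in H_C relative to L_C).

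Amino acid transporters split by gene and by treatment. Of 16 tested, 9 rose and 2 fell in H_O relative to H_C (6 rose without H_C replicate 3), and 10 rose and 1 fell in L_O relative to L_C (4 fell without L_C replicate 4). Slc7a11, the cystine importer, averaged 161 ± 17 CPM in H_O and 52.9 ± 0.919 CPM in H_C, and 122 ± 4.41 CPM in L_O and 43.3 ± 3.49 CPM in L_C (SD, n = 4 each). It rose by 1.61 ± 0.068 for H_O against H_C and by 1.5 ± 0.068 for L_O against L_C (adjusted p = 9.68e-12 and 2.57e-11). Slc7a2, a carrier of arginine, fell by 0.81 and by 1.05 in these comparisons.

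With high glucose some transporters rose and others fell. Slc38a2, a carrier of neutral amino acids that ATF4 and osmotic stress are known to induce, averaged 274 ± 1.9 CPM in H_O and 182 ± 5.45 CPM in L_O, and 248 ± 11 CPM in H_C and 142 ± 9.73 CPM in L_C (SD, n = 4 each). It rose by 0.80 ± 0.048 for H_C against L_C (adjusted p = 4.08e-08) and by 0.60 ± 0.048 for H_O against L_O (adjusted p = 8.13e-07). Slc7a6 rose by 0.65 and 0.68 in the same comparisons, and Slc7a11 by 0.29 and 0.40 (adjusted p = 0.00838 and 0.00112). In all, 3 rose and 5 fell in H_C relative to L_C (3 fell without H_C replicate 3), and 4 rose and 3 fell in H_O relative to L_O (none fell without H_O replicate 1 or L_O replicate 1, and 5 fell without L_C replicate 4). Slc7a5 and Slc7a1, picked after their values were seen, rose with ox-LDL (0.64 and 0.30 for H_O against H_C, 0.61 and 0.35 for L_O against L_C). Both fell with high glucose (-0.39 and -0.23 for H_C against L_C, -0.36 and -0.28 for H_O against L_O). The call of Slc7a5 for H_O against L_O was lost without any single H_O library or L_O replicate 1, 3 or 4 (adjusted p 0.0517 to 0.0979) and with a replicate block (0.0552), and that for H_C against L_C without H_C replicate 3 (0.0548) and in a fit of only the libraries compared (0.0838). The call of Slc7a1 for H_C against L_C was lost without H_C replicate 1, 3 or 4 or L_C replicate 3 (0.0508 to 0.0975), in a fit of only the libraries compared (0.0918) and with no scaling (0.062). For H_O against L_O it was lost without H_O replicate 1 or 2 or L_O replicate 1 (0.0519 to 0.0551).

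Among 17 tested partners and stress targets of ATF4, 5 rose and 4 fell in H_O relative to H_C, and 6 rose and 4 fell in L_O relative to L_C. Gdf15, a secreted stress cytokine, averaged 86.7 ± 9.74 CPM in H_O and 46.2 ± 3.47 CPM in H_C, and 91.9 ± 3.08 CPM in L_O and 40.6 ± 1.44 CPM in L_C (SD, n = 4 each). It rose by 0.91 ± 0.071 and by 1.18 ± 0.072 in H_O and L_O relative to their controls (adjusted p = 2.44e-08 and 9.19e-10). Atf5, a related factor, rose by 0.68 and 0.72. Vegfa, a growth factor of blood vessels, fell by 0.83 and by 1.09, and fell by 0.63 for H_C against L_C and by 0.37 for H_O against L_O. The last call was lost in edgeR without H_O replicate 1 (adjusted p = 0.0522), H_O replicate 4 (0.0603) or L_O replicate 1 (0.0576). Cebpb, a dimer partner of ATF4 picked after its values were seen, fell by 0.40 and by 0.41 with ox-LDL, as Ddit3 and Atf3 did.

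Upstream, 9 genes for eIF2, its kinases and its phosphatase were also counted. Eif2s1, the eIF2 subunit that is phosphorylated, rose by 0.30 ± 0.051 for H_O against H_C and by 0.26 ± 0.051 for L_O against L_C. Ppp1r15a, the stress-induced phosphatase subunit GADD34, fell by 0.48 ± 0.069 for H_O against H_C (adjusted p = 4.02e-05) and by 0.23 ± 0.07 for L_O against L_C (adjusted p = 0.0219). The call for L_O was lost without L_O replicate 1 (adjusted p = 0.0548), L_O replicate 3 (0.0595) or L_C replicate 1 (0.0674). It rose by 0.31 for H_C against L_C. In all 1 gene rose and 3 fell in H_O relative to H_C, beside 21.9% of all entries called in either direction. In L_O relative to L_C 1 rose and 1 fell, beside 25.8% of all entries (3 rose and none fell with no scaling beyond library totals), 1 rose and 1 fell in H_C relative to L_C, and 0 passed for H_O against L_O. In L_O relative to L_C none fell without each of those 3 libraries, and 3 fell without L_C replicate 4.

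The NRF2 targets, genes of the antioxidant response that share Slc7a11 with the transporters, rose in 16 of 16 tested cases in each ox-LDL comparison. Their median log2 fold change was 0.95 in H_O relative to H_C and 0.99 in L_O relative to L_C. In H_C relative to L_C 5 rose and none fell (3 rose without H_C replicate 1 or L_C replicate 2), and in H_O relative to L_O 1 rose. Gclm, the regulatory subunit of the first enzyme of glutathione synthesis, rose by 1.73 and 1.76 with ox-LDL.

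Likeness across libraries was described by the Pearson correlation of log2 CPM over the 16 libraries among 8381 genes. The libraries share their group, so these values largely follow the group means, and none is a test. The genes most like Asns were Clec4a2 (0.98), Sept9 (0.979) and Hal (0.977). Psat1 and Mthfd2 were each among the 3 genes most like the other (0.954), and their deviations from the group means correlated at 0.83. Both spread most in L_C (SD 8.72 CPM for Psat1 and 6.71 CPM for Mthfd2). In the other groups the SD was at most 2.87 and 3.97 CPM. Within L_C both genes were highest in replicate 3 and lowest in replicate 4. Atf3 was most like Slc30a1 (0.985), Anxa1 (0.984) and Trem2 (0.978), and Ddit3 was most like Arrdc3 (0.942). Aars was most like Cfp (0.974), and Asns and Aars correlated at 0.93, against 0.18 for Atf4 and Asns. In deviations from the group means the order was the other way, with 0.42 for Asns and Aars and 0.58 for Atf4 and Asns. The spread of Atf4 was largest in L_C (SD 22.4 CPM, against 3.17 to 7.26 CPM in the other groups). There both Atf4 (146 CPM) and Asns (12.6 CPM) were lowest in L_C replicate 4. In H_C replicate 1, by contrast, Atf4 was the highest of its group (183 CPM) and Asns the lowest (10.2 CPM). The value of 0.58 therefore need not hold within each group.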

How the data were processed

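The deposited table holds raw read counts per gene for 16 libraries, as whole numbers without normalization. HISAT2, DESeq2 and the mouse build mm10 are named without roles or versions, per the submitters' processing notes. The sources used here do not give the counting tool, the annotation or the strand setting. The members and lists were chosen with earlier results of these data known.

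Tests used edgeR 4.0.16 under R 4.3.3 (two-sided quasi-likelihood F test, TMM, filterByExpr by group, all 16 libraries in 1 fit with 12 residual degrees of freedom), with Benjamini-Hochberg adjustment over 13527 tested entries and a threshold of 0.05. The 2344 entries with low counts were not tested. CPM values use TMM-scaled library totals, and log2 CPM a prior count of 2. Library totals of 32596640 to 41712885 set the counting error.

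Of 188 list genes in 12 lists, 176 had an entry; Fgf21, Adm2, Cth and Cbs, among the others, were not analysed here. The text names all members, the genes most like them, and up to 4 genes per list with the smallest adjusted p, of which it prints a subset. Exon lengths and shared 50-base words come from GENCODE M21 (GRCm38, the assembly of mm10), and promoters from RefSeq. The promoter of Aars is not reported here. The test was run on simulated counts drawn independently from its own fitted model. That run cannot show how the test behaves with an outlying library or with replicates that depend on each other.

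Alternatives were RLE and upper-quartile factors, no filter, a CPM filter, DESeq2 1.42.0, limma-voom (limma 3.58.1), a replicate block, only the libraries compared, and each library left out. No scaling beyond totals and limma-voom with quality weights were chosen after seeing the data.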

Additional observations from a re-analysis of the deposited data

Results flagged for a closer look

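In 3 of the 40 sets of 4 libraries, a set being a member in a group, 1 library lay far from the other 3 by Dixon's ratio of the gap to the range, where chance gives about 1 in 20. Ddit3 had 42.3 CPM in L_C replicate 3, above the others of that group. Without that library its log2 fold change for L_O against L_C was -0.25 (adjusted p = 0.0366) and for H_C against L_C it was -0.36 (adjusted p = 0.00874), both in edgeR.

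Shmt2 had 20.7 CPM in H_C replicate 4, below the others. Without it Shmt2 rose by 0.44 on the log2 scale for H_O against H_C (edgeR, adjusted p = 0.0028). Sesn2 had 20.4 CPM in H_C replicate 3, below the others. Without it the log2 fold change of Sesn2 for H_O against H_C was 0.17 (edgeR, adjusted p = 0.195).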

How the results depend on the processing

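Among the alternative values of the members' log2 fold changes, 1227 kept their direction and side of the threshold, 46 lost the call, 4 gained it and 13 turned direction, none of the last with a call. The turned values were all small. For Atf4 they were -0.03 for L_O against L_C, -0.07 for H_C against L_C and, for Atf3, -0.05 for H_C against L_C without L_C replicate 4. Atf4 was -0.01 for H_C against L_C without H_C replicate 1. With limma-voom and quality weights, Atf4 was -0.02 for L_O against L_C and -0.05 for H_C against L_C, and Atf3 was -0.03 for H_C against L_C. With no scaling beyond library totals Atf4 was 0.02 for H_O against H_C. In the interaction, Mthfd2 was 0.02 without L_C replicate 4, Psat1 -0.08 without L_C replicate 3, and Trib3 0.03 without H_C replicate 3 or L_O replicate 1 and 0 with quality weights. The fits without 1 library reached 0.12 for Atf4 in L_O against L_C, 0.08 for Atf4 and 0.13 for Atf3 in H_C against L_C, and 0.22 for Psat1 and -0.14 for Mthfd2 in the interaction. The cause was not tested.

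Entries called were 914 for H_C against L_C and 1619 for H_O against L_O in a fit of only the libraries compared, against 1728 and 826, and 1846 for H_O against L_O with quality weights. The interaction gave 95 entries with DESeq2, 75 with quality weights, and 0 with limma-voom, against 2. Leaving out each library gave 2476 to 3965 entries for H_O against H_C, 2982 to 3881 for L_O against L_C, 1252 to 2187 for H_C against L_C, 526 to 1763 for H_O against L_O (lowest without L_O replicate 1, highest without L_C replicate 4) and 0 to 53 for the interaction (highest without L_C replicate 4). Members called ranged over 6 to 8, 7 to 8, 6 to 7, 5 to 7 and 0 in the same order of comparisons.

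Mthfd2 for H_C against L_C also lost its call with upper-quartile factors, limma-voom, only the libraries compared and no scaling (adjusted p 0.0551 to 0.183). Same-numbered libraries of different groups correlated between -0.16 and 0.07 in their deviations from the group means, and 5 of 16 correlated best with their own number, so the numbers were not taken to pair the libraries. With a replicate block, ox-LDL gave 2873 entries and 7 members in high glucose and 3400 entries and 8 members in low glucose. With it, glucose gave 750 entries and 7 members in the presence of ox-LDL and 1632 entries and 7 members in its absence, and the interaction gave 0 and 0. The lowest member count in any library was 198 reads (Trib3 in H_C replicate 1), so counting error is largest there. Counts of 0, 1 or 2 genes in a pathway list lay between 0 and 4 when single libraries were left out, and so rest on few genes.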

Other observations

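Sesn1, a relative of Sesn2 that p53 controls, was not a member and fell with high glucose as Sesn2 did. It averaged 40.1 ± 3.35 CPM in H_C and 64 ± 5.26 CPM in L_C, and 36.9 ± 3.35 CPM in H_O and 53.8 ± 2.87 CPM in L_O (SD, n = 4 each). Its log2 fold change was -0.67 ± 0.077 for H_C against L_C and -0.54 ± 0.078 for H_O against L_O (edgeR, adjusted p = 2.05e-05 and 0.000328). With ox-LDL Sesn1 fell for L_O against L_C (-0.25, adjusted p = 0.0217), where Sesn2 rose. That call was lost without L_O replicate 2 (0.0754), among others. For H_O against H_C Sesn1 did not pass (-0.12, adjusted p = 0.322). Of 10 p53 targets, 4 fell and 1 rose in each glucose comparison. Cdkn1a, an inhibitor of the cell cycle, fell by 0.67 and by 0.61, and Ccng1 by 0.28 and by 0.26. With ox-LDL 2 fell and 1 rose in H_O relative to H_C, and 3 fell and 2 rose in L_O relative to L_C (2 fell and 4 rose with no scaling beyond library totals). Of all entries, 21.9% and 25.8% were called in these ox-LDL comparisons, in either direction.

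Targets of ATF6 and XBP1, which raise the folding capacity of the endoplasmic reticulum, rose in 10 of 16 cases and fell in none in H_O relative to H_C, and 5 rose and 1 fell in L_O relative to L_C (8 rose with no scaling beyond library totals). In H_C relative to L_C 8 fell and none rose, and in H_O relative to L_O 1 rose and none fell (without L_C replicate 4, 3 fell). Hyou1, a chaperone, rose by 0.41 and 0.37 with ox-LDL. Chac1, which degrades glutathione and was picked after its values were seen, rose by 1.14 for H_O against H_C and by 0.92 for L_O against L_C. It stood at 1.66 to 3.93 CPM in H_O and 0.701 to 1.45 CPM in H_C, and the calls were lost without H_O replicate 3 (adjusted p = 0.0681) and without L_O replicate 1 (0.085), among others.

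Lars2, the mitochondrial leucine synthetase, spread widely among the H_O libraries, between 50.9 and 247 CPM, against 34.4 to 60.1 CPM in H_C. Its log2 fold change was 1.77 ± 0.33 for H_O against H_C (edgeR, adjusted p = 0.000682).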
